A study of Physcomitrium patens with 47 samples.

Results

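A set of 150 genes out of 32926 in the moss Physcomitrium patens was picked because transcript levels in 2 mitochondrial knockouts lay near those of wild type at the end of the night and above them 6 h into the day. Levels were expressed as CPM, the counts of a gene scaled to a common total of counts in genes, and each group was summarised by its mean log2(CPM + 1). The genes were thus selected on measured values of WT at all times and of the knockouts at ZT0 and ZT6, and the minimum level also took in the knockouts at ZT2. A gene was taken when its highest group mean was at least 10 CPM, its mean wild-type level was under 1000 CPM and its wild-type level moved by less than 0.5 (log2) between neighbouring times. Each knockout further had to lie within 0.5 of wild type at ZT0 and at least 0.5 above it at ZT6. ZT is the time in hours since lights on. Genes with the ID prefixes Pp3c2, Pp3c25 and Pp3c27 were left out, which kept 29976 genes. Of these, 5545 met the limits on level and on the wild-type steps, 2599 of those lay near wild type at ZT0 in both knockouts, and 169 were also higher in both at ZT6. The 150 with the largest smaller difference at ZT6 are described here.

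The knockouts were COX11 KO (lines 150 and 152) and NDUFA5 KO (lines 46 and 48), made by inserting an antibiotic resistance cassette into the target gene by homologous recombination, with 2 independent lines each. Wild type (WT) carried no insertion. All plants were protonema with young gametophores, grown in boxes under 12 h of light and 12 h of dark. ZT0 boxes were wrapped in foil through the night and their plants frozen in dim green light, while plants of the other times were harvested with the lamps on. The 3′-end (QuantSeq) libraries numbered, in the order ZT0, ZT2 and ZT6, 6, 4 and 8 in WT, 5, 5 and 5 in COX11 KO, and 4, 5 and 5 in NDUFA5 KO. Nothing in the labels says that replicates came from separate cultures, so a p-value here reflects only how far the libraries scatter, which may be technical scatter.

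Plant mitochondria pass electrons from NADH through complex I to ubiquinone and on through complexes III and IV to oxygen, and the proton gradient this builds drives ATP synthesis. NDUFA5 is a subunit of the arm of complex I that protrudes into the matrix. COX11 is an assembly factor that delivers copper to complex IV. In green cells the chain works beside the chloroplasts: in the dark it is the main source of ATP, and in the light it also takes up reducing power from photosynthesis and photorespiration. The IDs of the count table could not be paired with gene names, so the functions of the 150 genes are not described and the 2 target genes were not checked by name.

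The 47 libraries held 4060158 to 10349604 counts in genes (median 5659267). WT libraries at ZT2 all carried the code letter A, as did 4 of 5 COX11 KO libraries and line 48, whereas line 46 at ZT2 carried the letter Z. Letter and line of NDUFA5 KO at ZT2 cannot be told apart. At ZT0 all 6 WT libraries and all 5 of COX11 KO carried Z, as did those of NDUFA5 KO except 1 of line 46. At ZT6, 2 of 8 WT libraries, 1 of line 150 and 1 of line 46 carried A, and the rest Z. Letter and time thus cannot be told apart in WT between ZT0 and ZT2, nor in most COX11 KO libraries. The limit on WT steps rests on such differences.

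The label of a rise limited to light was checked first, because it rests on CPM scaled by library totals. Under the TMM method, which scales libraries so that most genes do not move between them, 40 of the 150 genes still met all conditions. Of the others, 93 missed the minimum at ZT6 in at least one knockout and 41 missed the limit at ZT0, some missing both. The median difference from WT at ZT0 was 0.08 (log2) in COX11 KO and 0.13 in NDUFA5 KO with library totals, and −0.13 and 0.30 with TMM. At ZT6 it was 0.82 and 0.65 with library totals, and 0.60 and 0.48 with TMM. With TMM, NDUFA5 KO was thus already above WT at the end of the night for many of these genes, 28 of them by 0.5 or more. Differences of that size were common in other genes too. Over the 5545 genes that met the limits, the edgeR log2 fold change there had a median of 0.10 and an upper quartile of 0.51. Over the 150 genes these values were 0.30 and 0.48. The label holds only for the scaling that chose the 150 genes. The 40 genes that met the conditions under both scalings had TMM medians of 0.36 in COX11 KO and 0.58 in NDUFA5 KO at ZT2.

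In WT the chosen genes were of middling level and nearly flat, as the rule required. Their median WT level was 17.7 CPM at ZT0, 17.9 CPM at ZT2 and 17.1 CPM at ZT6. In COX11 KO it was 18.8 CPM at ZT0, 27 CPM at ZT2 and 33.3 CPM at ZT6. In NDUFA5 KO it was 20.7 CPM at ZT0, 30.4 CPM at ZT2 and 29.3 CPM at ZT6. With library totals the COX11 KO median was thus higher at each later time, whereas the NDUFA5 KO median rose only between ZT0 and ZT2. The ZT0 levels near WT were set by the choice of genes on that scale. With TMM, the median difference from WT in NDUFA5 KO was already 0.30 (log2) at ZT0, beside 0.53 at ZT2 and 0.48 at ZT6. In COX11 KO it was −0.13, 0.26 and 0.60. Part of the NDUFA5 KO excess was thus present at the end of the night with TMM. Among the 5545 genes that met the limits on level and WT steps, all 9 group medians lay between 22.2 and 26.2 CPM. These are levels in whole tissue, in which fewer cells of a type and less RNA per cell cannot be told apart.

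**Figure D1:**
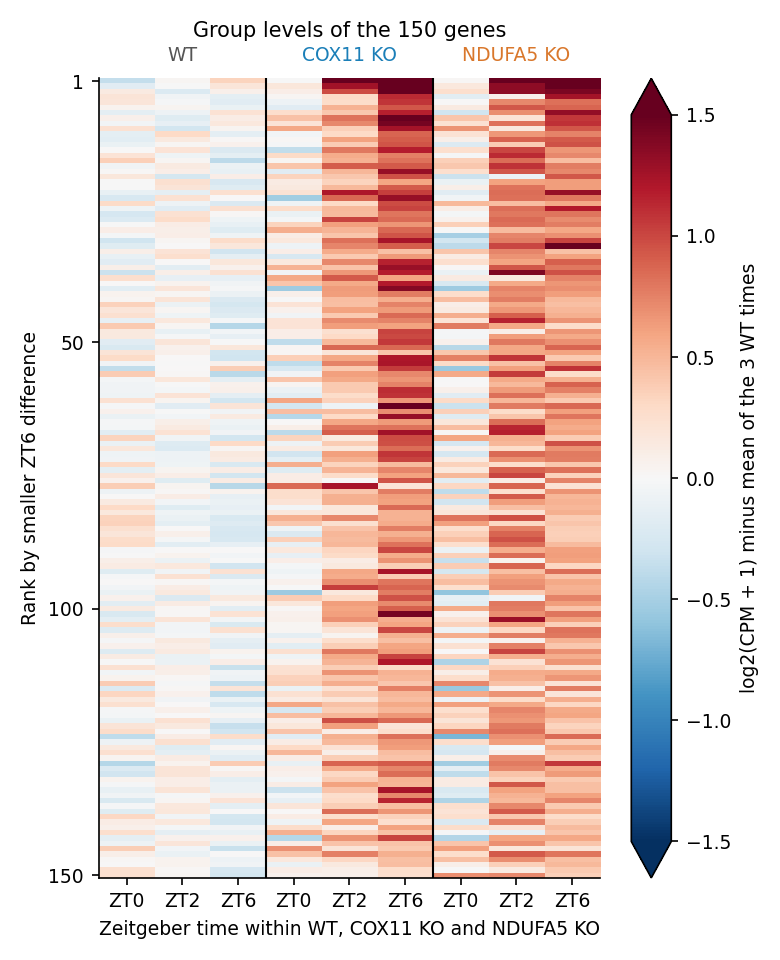
Difference from the WT mean in log2(CPM + 1) for each of the 150 genes (lines of the map) in the knockout groups at ZT0, ZT2 and ZT6 (columns), with colours clipped at 1.5 either way. The ZT0 columns are pale and the ZT6 columns deep, as the choice of genes set. The ZT2 columns, which it did not set, are deeper in NDUFA5 KO than in COX11 KO.

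The median over the 150 genes was taken in each library, as the difference from the WT mean of the same time on the TMM scale. In COX11 KO it was −0.12 ± 0.054 (SD, n = 5) at ZT0, 0.274 ± 0.085 (SD, n = 5) at ZT2 and 0.631 ± 0.057 (SD, n = 5) at ZT6. In NDUFA5 KO it was 0.284 ± 0.106 (SD, n = 4) at ZT0, 0.554 ± 0.123 (SD, n = 5) at ZT2 and 0.529 ± 0.065 (SD, n = 5) at ZT6. WT libraries scattered around 0, from −0.185 to 0.136 (ZT0), −0.076 to 0.084 (ZT2) and −0.051 to 0.154 (ZT6). At ZT2 every COX11 KO library (0.197 to 0.398) and every NDUFA5 KO library (0.398 to 0.698) lay above every WT library. At ZT0 every NDUFA5 KO library (0.192 to 0.43) also lay above every WT library, while the COX11 KO libraries (−0.17 to −0.03) lay within the WT range. The ZT0 separation was not particular to the 150 genes. Over the 5545 genes that met the limits, the medians at ZT0 were 0.099 to 0.134 in NDUFA5 KO and −0.026 to 0.071 in WT. At ZT2 their medians overlapped WT (−0.036 to 0.017) in NDUFA5 KO (0.007 to 0.051) and in COX11 KO (−0.039 to −0.002). By line, the mean at ZT2 was 0.324 in line 150, 0.199 in line 152, 0.52 in line 46 and 0.604 in line 48.

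**Figure D2:**
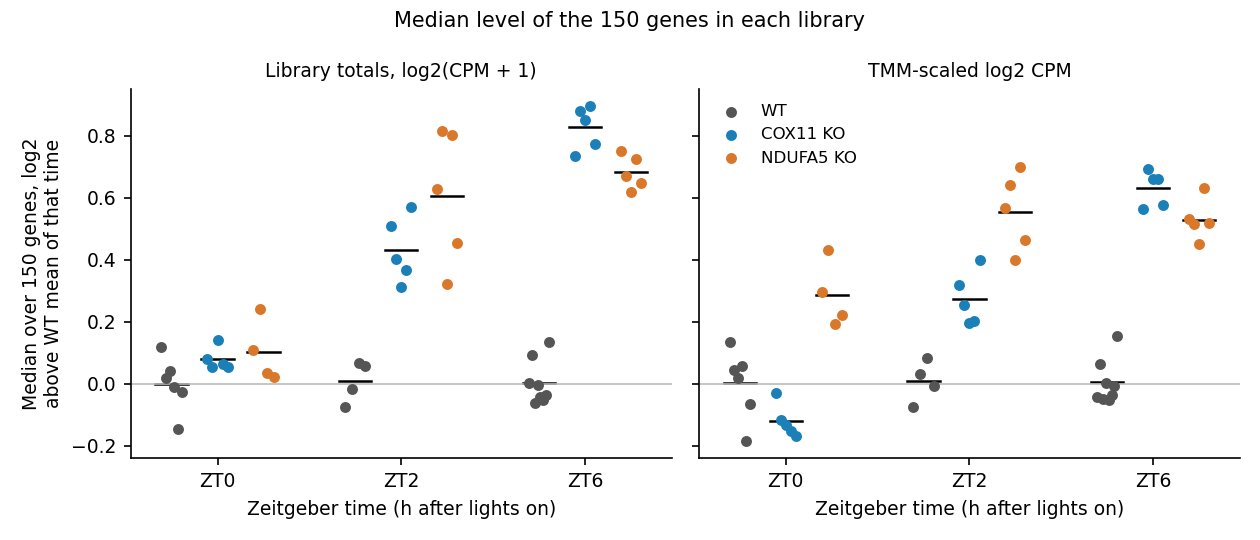
Median over the 150 genes in each library, in log2 above the WT mean of the same time on the TMM scale, by genotype and time; points are libraries and bars are group means. At ZT2 all knockout libraries lie above the WT libraries, and NDUFA5 KO libraries lie above WT at ZT0 as well. The ZT0 separation also held for medians over all genes that met the limits.

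ZT2 asks how the genes stood early in the day, with knockout libraries that played no part in choosing them beyond the minimum level; the WT libraries at ZT2 entered through the limit on WT steps. For 2 of the 150 genes the minimum of 10 CPM was reached only in a knockout at ZT2, and their values at ZT2 are not independent of the choice. Of these 2, 1 is counted as higher in NDUFA5 KO and 1 as lower in COX11 KO than in NDUFA5 KO in what follows. On the scale of the rule, 57 of the 150 genes were at least 0.5 above WT in COX11 KO at ZT2, against 10.8% of the 5545 genes that met the same limits. In NDUFA5 KO 100 of the 150 were, against 16.5%. The COX11 KO difference ranged from −0.02 to 2.81 and was above 0 in 149 genes, and the NDUFA5 KO difference ranged from −0.08 to 4.31 and was above 0 in 149 genes. Most other genes also lay above WT on this scale. Of the 5545 genes that met the same limits, 3940 were above 0 in COX11 KO and 3351 in NDUFA5 KO.

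The comparisons at ZT2 were then tested with edgeR's quasi-likelihood test on TMM-scaled counts, with Benjamini-Hochberg adjustment over 18460 genes and a threshold of 0.05; all 150 genes passed its filter on low counts. In COX11 KO 47 of the 150 rose against WT, where 13.7% of all tested genes and 7.59% of those that met the same limits were higher. None of the 150 was lower by this test or by DESeq2, and none at an unadjusted p under 0.05, where 16.2% of all genes and 13.1% of those that met the same limits were lower by edgeR. The 47 genes that rose did so by 0.33 to 4.42 (log2, median 0.53), 6 of them at least 2-fold. The median over all 150 was 0.28, beside 0.0 over all genes tested. With library totals in place of TMM, 83 of the 150 were higher, beside 22.5% of all genes, and the median of all genes was then 0.18.

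In NDUFA5 KO 110 of the 150 rose against WT at ZT2, where 22.9% of all tested genes and 21.8% of those that met the same limits were higher. None was lower by edgeR or DESeq2 or at an unadjusted p under 0.05, where 21.1% of all genes and 18.4% of those that met the same limits were lower by edgeR. The 110 genes rose by 0.36 to 6.31 (log2, median 0.62), 14 of them at least 2-fold. The median over all 150 was 0.57, beside 0.04 over all genes tested. Both comparisons share the WT libraries, and their counts stand side by side only. Without line 46, whose letter differs from that of WT at ZT2, 95 of the 150 rose in NDUFA5 KO, where 14.7% of all tested genes did. Without line 48, 94 did, where 22.3% of all tested genes did.

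Single libraries tell how cleanly the groups parted at ZT2. In 41 of the 150 genes every COX11 KO library lay above every WT library in TMM-scaled CPM, where 13.8% of all tested genes did so. In 95 of the 150 genes every NDUFA5 KO library lay above every WT library, where 16.4% of all tested genes did so.

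The gene first in the order of the rule, Pp3c7_19980, was nearly absent from WT and reached its highest level in NDUFA5 KO at ZT2. At ZT0 it was listed at 0 in 5 of 6 WT libraries and at 0.171 TMM-scaled CPM in the other, a single count over the group, beside 10 counts over the COX11 KO libraries and 11 over the NDUFA5 KO libraries. The edgeR log2 fold change at ZT0 was 2.80 (SE 1.38, adjusted p = 0.1) in COX11 KO and 3.14 (SE 1.36, adjusted p = 0.042) in NDUFA5 KO. On the scale of the rule these differences were 0.36 and 0.38, because adding 1 to the CPM shrinks differences near the floor. It thus met the limit at ZT0 through that scale. At ZT2 the WT libraries held 0.356, 0.199, 0.156 and 0.744 TMM-scaled CPM. The COX11 KO libraries held 4.41, 9.06 and 9.72 in line 150 and 11.6 and 5.83 in line 152.

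The NDUFA5 KO libraries held 36.8, 40.9 and 51.1 TMM-scaled CPM of Pp3c7_19980 in line 46 and 11.9 and 10.5 in line 48 at ZT2. No knockout library overlapped the WT libraries at ZT2, and line 46 stood apart from line 48. The log2 fold change at ZT2 was 4.42 (SE 0.66, edgeR adjusted p = 1.3e-06) in COX11 KO and 6.31 (SE 0.64, edgeR adjusted p = 1.4e-10) in NDUFA5 KO.

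At ZT6 Pp3c7_19980 stood at 0.758 ± 0.457 TMM-scaled CPM in WT (SD, n = 8), 9.22 ± 4.53 in COX11 KO (SD, n = 5) and 5.98 ± 1.35 in NDUFA5 KO (SD, n = 5). Its NDUFA5 KO level was thus far lower at ZT6 than at ZT2, while its COX11 KO levels at these times overlapped. Within COX11 KO, line 150 minus line 152 averaged −2.32 (log2) over the 3 times, but the edgeR adjusted p was 0.464. That average took in ZT0, near the floor, where line 150 held only 0 and line 152 held 1.9 and 0.301 TMM-scaled CPM. The lines overlapped at ZT2. At ZT6 line 150 held 5.74 and 3.82 TMM-scaled CPM, and line 152 held 15.1, 11.5 and 9.86.

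Pp3c5_11200, the next gene in that order, was expressed at a moderate level in every group. At ZT2 the WT libraries held 13.5, 15.4, 19.3 and 18.6 TMM-scaled CPM. The COX11 KO libraries of Pp3c5_11200 held 41.1, 36.7 and 48.4 in line 150 and 30.6 and 29.6 in line 152, and the NDUFA5 KO libraries held 43.0, 52.6 and 42.2 in line 46 and 30.7 and 43.0 in line 48. All 10 knockout libraries lay above all 4 WT libraries, and the knockouts overlapped each other.

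The rise of Pp3c5_11200 over WT at ZT2 was 1.16 (log2, SE 0.22, edgeR adjusted p = 5.4e-05) in COX11 KO and 1.34 (SE 0.22, edgeR adjusted p = 3.27e-06) in NDUFA5 KO. At ZT0 it stood at 16.3 ± 6.93 TMM-scaled CPM in WT (SD, n = 6), 16.9 ± 3.64 in COX11 KO (SD, n = 5) and 21.9 ± 4.05 in NDUFA5 KO (SD, n = 4), with all 3 ranges overlapping. At ZT6 it stood at 19.7 ± 2.7 in WT (SD, n = 8), 63.4 ± 8.99 in COX11 KO (SD, n = 5) and 48.0 ± 8.33 in NDUFA5 KO (SD, n = 5).

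The most abundant of the 150 genes in the knockouts at ZT6, Pp3c14_7080, was higher than WT in NDUFA5 KO at ZT2 and, with TMM, already at ZT0. The ZT0 log2 fold change, which the choice limited, was 0.40 (SE 0.16, edgeR adjusted p = 0.0244) in NDUFA5 KO. In COX11 KO it was −0.43 (SE 0.15, edgeR adjusted p = 0.019). Its ZT2 libraries held 266, 265, 298 and 278 TMM-scaled CPM in WT, 291, 313, 302, 268 and 352 in COX11 KO, and 469, 404, 374, 411 and 368 in NDUFA5 KO. The NDUFA5 KO libraries lay above all others and the COX11 KO libraries overlapped WT. The log2 fold change of Pp3c14_7080 was 0.14 (edgeR adjusted p = 0.562) in COX11 KO and 0.55 (SE 0.17, edgeR adjusted p = 0.00619) in NDUFA5 KO. The difference between the knockouts was −0.41 (edgeR adjusted p = 0.0426), a call lost in 12 of 24 alternatives.

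Pp3c3_21130, the next most abundant of the 150, held 159, 183, 192 and 181 TMM-scaled CPM in the WT libraries at ZT2. It held 197, 203, 214, 199 and 215 in COX11 KO and 266, 236, 221, 238 and 222 in NDUFA5 KO, so that neither knockout overlapped WT. The log2 fold change of Pp3c3_21130 was 0.20 (edgeR adjusted p = 0.391) in COX11 KO and 0.40 (SE 0.17, edgeR adjusted p = 0.0441) in NDUFA5 KO, and the latter call was lost in 12 of the 24 alternatives tried.

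**Figure D3:**
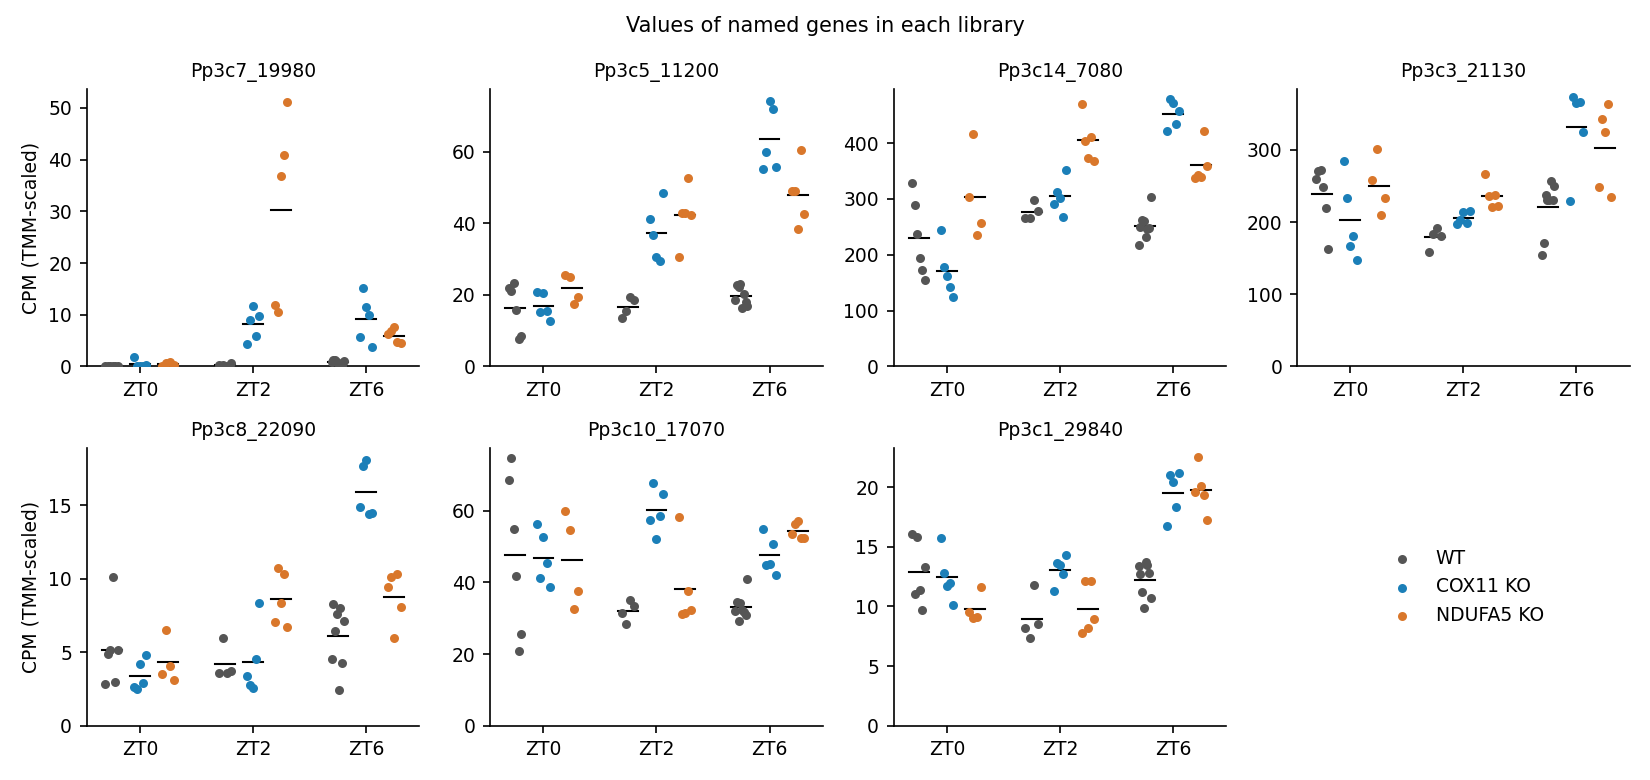
TMM-scaled CPM of the named genes in every library (points) with the group mean (bars), by genotype at ZT0, ZT2 and ZT6. Pp3c7_19980 peaks at ZT2 in NDUFA5 KO (30.3 ± 18.2, SD, n = 5), whereas Pp3c5_11200 is highest at ZT6 in both knockouts.

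The knockouts were compared directly at ZT2, a comparison without WT libraries, which the rule used only through the minimum level. Of the 150 genes, 55 were lower in COX11 KO than in NDUFA5 KO by edgeR, where 15.2% of all tested genes and 18.1% of those that met the same limits were. Only 3 of the 150 were higher in COX11 KO, where 13.6% of all tested genes and 10.6% of those that met the same limits were. The 55 genes differed by −1.89 to −0.29 (log2, median −0.47), and the 3 by 0.38 to 0.65. The median over all 150 was −0.28, beside 0.0 over all genes tested. With library totals 31 were lower and 3 higher, where 10.7% and 18.3% of all tested genes were. Without line 48, 36 were lower and 4 higher, where 14.2% and 13.6% of all tested genes were.

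Every NDUFA5 KO library at ZT2 lay above every COX11 KO library in 34 of the 150 genes, where 9.45% of all tested genes did so. The reverse held in 2 of the 150, where 9.14% of all tested genes did so. At ZT6 the order was the other way round for part of the genes: 24 of the 150 were higher in COX11 KO, where 9.91% of all tested genes were, and 1 was lower, where 8.49% were. Since ZT6 chose the genes, nothing is read from the ZT6 counts, and the change of order between ZT2 and ZT6 was not tested.

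Among the genes lower in COX11 KO at ZT2, Pp3c7_19980 differed by −1.89 (log2, SE 0.40, edgeR adjusted p = 0.000293), and that call was lost with letter A alone (−0.56) and without line 46 (−0.49). Pp3c8_22090, a gene of low level, held 3.56, 5.98, 3.59 and 3.72 TMM-scaled CPM in WT at ZT2. It held 3.35, 2.78 and 8.35 in line 150, 2.58 and 4.51 in line 152, 8.34, 10.3 and 6.72 in line 46 and 7.08 and 10.7 in line 48. One COX11 KO library of line 150 fell among the NDUFA5 KO libraries, and the other 4 among or below WT.

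Pp3c8_22090 differed between the knockouts by −1.0 (log2, SE 0.29, edgeR adjusted p = 0.0084). It rose over WT in NDUFA5 KO by 1.04 (SE 0.32, edgeR adjusted p = 0.00722), and its COX11 KO fold change was 0.04 (edgeR adjusted p = 0.937).

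Pp3c10_17070 was among the 3 genes higher in COX11 KO than in NDUFA5 KO at ZT2. It held 31.5, 28.5, 35.2 and 33.3 TMM-scaled CPM in WT, 57.5, 67.7, 64.7, 52.2 and 58.5 in COX11 KO, and 31.6, 37.5 and 32.3 in line 46 of NDUFA5 KO. Line 48 held 58.3 in one library and 31.1 in the other, so that one NDUFA5 KO library lay among those of COX11 KO and the other 4 near WT.

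The COX11 KO rise of Pp3c10_17070 over WT was 0.90 (log2, SE 0.22, edgeR adjusted p = 0.00151), its NDUFA5 KO fold change was 0.25 (edgeR adjusted p = 0.384), and the difference between the knockouts was 0.65 (SE 0.21, edgeR adjusted p = 0.0135). That last call was lost with letter A alone (0.39) and without line 46 (0.41). Pp3c1_29840 showed the same order at a lower level, with 8.99 ± 1.97 TMM-scaled CPM in WT (SD, n = 4), 13.1 ± 1.16 in COX11 KO (SD, n = 5) and 9.80 ± 2.12 in NDUFA5 KO (SD, n = 5). Its difference between the knockouts was 0.41 (SE 0.14, edgeR adjusted p = 0.0253), a call lost in 7 of 24 alternatives.

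The levels over the day are given as a description. The rule asked for a flat WT level, for knockouts near it at ZT0 and for knockouts above it at ZT6, so peaks at ZT6, few peaks at ZT0 and rising levels follow in large part from the choice, and nothing is read from their counts. In COX11 KO 122 of the 150 genes had their highest group mean at ZT6, 22 had it at ZT2 and 6 at ZT0; among the genes that met the limits the shares were 31.7%, 25.1% and 43.2%. In NDUFA5 KO 68 had it at ZT6, 76 at ZT2 and 6 at ZT0; among the genes that met the limits the shares were 37.5%, 31.7% and 30.8%. The level rose at each later time in 110 genes in COX11 KO (73.3%, beside 20.1% of the genes that met the limits) and in 61 in NDUFA5 KO (40.7%, beside 31.6%). The median step on the scale of the rule was 0.39 from ZT0 to ZT2 and 0.30 from ZT2 to ZT6 in COX11 KO, and 0.51 and −0.05 in NDUFA5 KO. The difference from WT was larger at ZT6 than at ZT2 in 139 genes in COX11 KO and in 94 in NDUFA5 KO. The choice of large ZT6 differences favours this pattern, and its share among other genes was not taken. Nothing is read from these counts or from their difference between the knockouts.

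The calls at ZT0 and ZT6 describe the choice and carry no weight as tests. At ZT6, with TMM, 142 of the 150 were higher in COX11 KO, where 20.7% of all tested genes were, and 145 in NDUFA5 KO, where 18.7% were. None of the 150 was lower in either, by edgeR, where 23.1% and 20.5% of all tested genes were. At ZT0, 1 was higher and 40 lower in COX11 KO, where 19.9% and 20.7% of all tested genes were. In NDUFA5 KO at ZT0, 67 were higher and 4 lower, where 30% and 31.6% were. With library totals those ZT0 counts were 15 and 8 in COX11 KO, where 32.4% and 12.0% of all tested genes were, and 25 and 13 in NDUFA5 KO, where 23.5% and 38.7% were. The edgeR median of all tested genes at ZT0 was 0.0 in COX11 KO and −0.04 in NDUFA5 KO with TMM, and 0.21 and −0.23 with library totals. The sign of the ZT0 median over the 150 genes depended on the scaling in COX11 KO, while in NDUFA5 KO it was above 0 under both. Leaving out line 46 replicate 2, the library with the most counts, left 43 higher and 5 lower in NDUFA5 KO at ZT0, where 27.6% and 30.6% of all tested genes were.

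The independent lines of each knockout were compared over the 3 times. Line 46 replicate 3 at ZT6 is line 46 by its title and line 48 by its listed characteristics, and the title was followed. Between lines 150 and 152 none of the 150 genes differed by edgeR (0.0% of all tested genes were called in either direction). None differed by DESeq2, where 1 of 18460 tested genes was higher and 0 lower. At an unadjusted edgeR p under 0.05, 0 of the 150 were higher and 2 lower. Between lines 46 and 48 none differed by edgeR, where 1.72% of all tested genes were higher and 1.31% lower. None differed by DESeq2, where 2.28% were higher and 2.39% lower. At an unadjusted edgeR p under 0.05, 3 of the 150 were higher and 2 lower. The share of all genes at that unadjusted threshold was not taken for either knockout, so nothing is read from those counts. With line 46 replicate 3 at ZT6 taken as line 48, none of the 150 differed, where 0.168% of all tested genes were higher and 0.195% lower. Without line 48 replicate 1 at ZT2 none differed, where 0.217% and 0.38% were. The smallest adjusted p was 0.464 for COX11 KO and 0.0956 for NDUFA5 KO, which does not show that the lines are alike.

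The genes were spread over the ID prefixes. Members lay under 24 prefixes, at 0.866% (Pp3c15) to 6.1% (Pp3c19, 10 of 164) of the genes under that prefix that met the limits. Among all IDs 1 pair of members was adjacent in ID order, and among the IDs of tested genes 3 pairs were. Whether these counts differ from those of other genes was not tested. Around the last place taken, the smaller ZT6 difference was 0.52 in the last gene inside and 0.519 in the first gene outside.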

How the data were processed

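RNA was profiled by QuantSeq 3′ FWD libraries on an Illumina instrument, per the labels' protocols. The submitters' processing notes list HTSeq 2.0.2, Bowtie2 2.2.5 and SAMtools 1.6. The genome build and gene models are details not given in the sources used here. In all, the deposited table holds estimated counts per gene: 2.35% of the authors' values are not whole, in 2085 genes (5 of the 150 described). They were rounded to whole numbers for the count tests, which had been planned for whole counts. Lines that name no gene held 26.2% to 39.9% of a library's counts and were left out, and 10 value columns matched no sample and were not used.

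The 150 genes, the comparisons and the rule for named genes were chosen with earlier results of these data known. The rule for membership used log2(CPM + 1) with CPM over counts in genes. Tests were edgeR 4.0.16 quasi-likelihood fits (R 4.3.3, TMM, filterByExpr keeping 18460 genes, Benjamini-Hochberg at 0.05) with one mean per group of genotype and time over all 47 libraries; lines were compared in a fit with one mean per line and time. The methods were tested on simulated counts. A first bar, on the share of genes with a 2-fold change that were called at ZT2, was missed. It was replaced after that was seen by bars on bias of the fold change and on false calls, which were met. Alternatives were library totals, TMM without the 3 prefixes, DESeq2 1.42.0, no low-count filter, the code letter as covariate, letter A only, a replicate block, and leaving out each library; 4 more were chosen after seeing the data. At most 2 genes per direction were named for each comparison. They were those first in the order of the rule and the most abundant of the 150 in the knockouts at ZT6. Added were those with the largest smaller fold change among genes higher in both knockouts at ZT2. Between the knockouts at ZT2 they were those with the largest fold change among genes that passed the test. Between lines they were those with the smallest adjusted p. Counting error is the only error that library depth reflects.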

Additional observations from a re-analysis of the deposited data

Results flagged for a closer look

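Dixon's criterion was applied to 72 groups of libraries, 63 of them single-gene values of 7 named genes in 9 groups and 9 of them the medians over the 150 genes. In 7 groups, all of single genes, a library stood apart from the rest; chance gives about 1 in 20 groups. Pp3c7_19980 stood at 1.90 TMM-scaled CPM in COX11 KO line 152 replicate 1 at ZT0, and at 0.171 in WT replicate 6 at ZT0. Pp3c14_7080 stood at 422 in NDUFA5 KO line 48 replicate 1 at ZT6. Pp3c8_22090 stood at 10.1 in WT replicate 4 at ZT0 and at 5.98 in WT replicate 2 at ZT2. Pp3c10_17070 stood at 58.3 in NDUFA5 KO line 48 replicate 1 at ZT2 and at 41 in WT replicate 8 at ZT6.

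The effects of the knockouts at ZT2 differed by edgeR's test of the difference (COX11 KO minus NDUFA5 KO, log2) for Pp3c7_19980 (−1.89), Pp3c14_7080 (−0.41), Pp3c8_22090 (−1.0), Pp3c10_17070 (0.65) and Pp3c1_29840 (0.41). Over the whole set the effect was lower in COX11 KO in 55 of the 150 genes, where 15.2% of all tested genes were lower.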

How the results depend on the processing

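Among the fold changes of the named genes at ZT2 that passed the test, none changed sign under the 24 alternatives; the COX11 KO fold change of Pp3c8_22090, which did not pass it, changed sign in 5. With library totals in place of TMM, 83 were higher in COX11 KO at ZT2 (median 0.45), where 22.5% of all tested genes were. Lower in COX11 KO than in NDUFA5 KO at ZT2 were 31, where 10.7% of all tested genes were. At ZT0, 15 were higher and 8 lower in COX11 KO, where 32.4% and 12.0% were. In NDUFA5 KO at ZT0, 25 were higher and 13 lower, where 23.5% and 38.7% were. With TMM in the rule itself, 40 of the 150 genes met it. Between the knockouts at ZT2, 1 gene was higher in COX11 KO with letter A alone, where 15.3% of all tested genes were. Without line 46, 0 were higher in COX11 KO, where 10.2% were. Without line 48, 36 were lower in COX11 KO, where 14.2% were. At ZT0, DESeq2 gave 2 higher in COX11 KO, where 17.8% of all tested genes were. TMM without the 3 prefixes gave 0 lower in NDUFA5 KO at ZT0, where 29.5% were. Leaving out line 46 replicate 2 gave 43 higher in NDUFA5 KO at ZT0, where 27.6% were. The cause of these changes was not tested. Leaving out single libraries gave 35 to 51 genes higher in COX11 KO at ZT2, where 10.9% to 14.2% of all tested genes were. In NDUFA5 KO 94 to 115 were higher at ZT2, where 19.9% to 23.3% were. Between the knockouts at ZT2, 39 to 62 were lower in COX11 KO, where at most 15.2% of all tested genes were. Higher in COX11 KO were 1 to 3, where at least 11.6% of all tested genes were. The count of 1 came without line 46 replicate 1 at ZT2, where 11.9% were. Without single libraries the rule was met by 133 to 150 of the genes. With a replicate block 45 genes were higher in COX11 KO at ZT2, where 13.2% of all tested genes were. In NDUFA5 KO 106 were higher, where 22.2% were. Between the knockouts 57 were lower and 3 higher in COX11 KO, where 14.8% and 13.6% of all tested genes were. Libraries with the same number did not deviate together (8 of 29 pairs correlated above 0.1, median −0.04), so the numbers were not used as pairs.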
